A study of Mus musculus with 3 samples.

Results

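The transcription factor genes Prdm1, Irf4, Irf8, Xbp1, Bach2, Pax5, Bcl6, Ebf1, Spib and Nfil3 were taken by name from the single-cell expression tables, and all 10 were found among 32285 genes. They were followed across the B cell states of the spleen and between the treatments. The B cells were from wild-type BXD2 females (3 mice per group), an inbred line prone to a spontaneous disease resembling lupus. All mice, controls included, received 25 µg of anti-IL-4 antibody and, 2 hours later, R848, which activates the endosomal receptor TLR7 (40 µg for each 20 g of mouse). In the IL-4+R848 group the antibody carried 5 µg of recombinant mouse IL-4 as a long-acting complex, while the R848 group received the antibody without IL-4. The round was repeated after 2 days, and spleen B cells were isolated by negative selection 2 days later, labelled with hashtag antibodies and a surface panel, and profiled in 3 libraries of single cells with 5′ capture, called sets here. Each set held cells of both groups, which the hashtags told apart. Nothing in the labels ties a set to particular mice, so the p-values measure the spread between sets, which may be technical.

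These factors form the circuit that keeps a B cell a B cell or turns it into an antibody-secreting cell. PAX5, EBF1 and SPIB maintain B cell identity, BACH2 and BCL6 hold back the plasma cell program, and BCL6 is also the defining repressor of germinal center B cells. IRF4 at high level and BLIMP-1, the product of Prdm1, drive plasma cell differentiation, XBP1 builds the secretory apparatus, IRF8 opposes IRF4 in B cells, and NFIL3 is a repressor that IL-4 is known to induce through STAT6.

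The stretch upstream of the RefSeq start site is shown for Nfil3, Xbp1 and Bcl6, the 3 members called higher with IL-4 by the largest factors in follicular-like cells, and for Prdm1, which BACH2 is known to repress. The sequences are bases -250 to -1, read 5′ to 3′ on the strand of the gene, from the RefSeq promoter windows on GRCm38.p6. Capitals mark every match to TTCNNNGAA, the spacing of 3 bound by most STAT factors, in Nfil3, Xbp1 and Bcl6, and every match to TGANTCA, a bZIP element of the AP-1 and BACH type, in Prdm1. Nfil3 lies at chr13:52981040-52981289 (minus strand), Xbp1 at chr11:5520391-5520640 (plus strand), the upstream Bcl6 start at chr16:23988853-23989102 and the downstream Bcl6 start at chr16:23981284-23981533 (both minus strand), and Prdm1 at chr10:44458749-44458998 (minus strand).
Nfil3: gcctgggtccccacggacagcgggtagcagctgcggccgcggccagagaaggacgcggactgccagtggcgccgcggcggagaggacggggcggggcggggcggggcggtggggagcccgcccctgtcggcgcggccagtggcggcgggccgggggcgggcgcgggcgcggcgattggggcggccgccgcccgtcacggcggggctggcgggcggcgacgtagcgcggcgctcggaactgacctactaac
Xbp1: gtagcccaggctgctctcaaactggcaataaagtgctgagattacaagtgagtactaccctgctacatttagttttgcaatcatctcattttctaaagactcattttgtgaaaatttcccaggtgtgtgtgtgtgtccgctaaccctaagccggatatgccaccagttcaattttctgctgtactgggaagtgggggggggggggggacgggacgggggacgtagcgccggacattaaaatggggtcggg
Bcl6 upstream start: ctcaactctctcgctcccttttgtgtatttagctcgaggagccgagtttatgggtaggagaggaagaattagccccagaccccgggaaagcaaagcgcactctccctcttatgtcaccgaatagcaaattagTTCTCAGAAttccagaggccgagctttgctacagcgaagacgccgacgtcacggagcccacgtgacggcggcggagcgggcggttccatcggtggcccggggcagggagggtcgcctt
Bcl6 downstream start: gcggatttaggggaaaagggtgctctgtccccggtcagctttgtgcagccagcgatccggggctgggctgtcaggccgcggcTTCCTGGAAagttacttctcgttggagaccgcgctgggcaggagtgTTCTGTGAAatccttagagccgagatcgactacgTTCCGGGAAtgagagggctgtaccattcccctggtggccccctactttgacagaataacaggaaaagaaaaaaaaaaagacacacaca
Prdm1: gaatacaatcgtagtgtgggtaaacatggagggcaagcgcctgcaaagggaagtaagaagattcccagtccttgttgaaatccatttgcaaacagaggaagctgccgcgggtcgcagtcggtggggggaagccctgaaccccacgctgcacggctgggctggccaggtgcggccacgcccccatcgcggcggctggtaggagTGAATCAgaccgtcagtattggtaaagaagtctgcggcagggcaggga
The Bcl6 windows held 1 match (from -118) and 3 matches (from -168, -122 and -88), and the Nfil3 and Xbp1 windows held none. TTCNNNGAA was also found in the windows of Irf8 (from -171 and -153) and Bach2 (from -140). Among all 32851 promoter windows of 300 bases, searched on both strands, 8.3% held TTCNNNGAA and 7.81% held TGANTCA. The same half-sites spaced by 4, as STAT6 prefers, were found in 6.95% of all windows and in none of the 10 members. The single Prdm1 match lay at -48 to -42.

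The 3 sets held 14519, 11389 and 14222 barcodes, of which 4579 to 7530 per set and treatment were used, and the median cell had 4446 to 5932 UMIs with R848 and 5199 to 6995 with IL-4+R848. Pairs of sets shared 219 to 289 barcodes. Cells were clustered with the 10 members, immunoglobulin, mitochondrial, ribosomal protein and T cell receptor genes left out, and clusters were named from marker lists as follicular-like, transitional-like, activated-like, marginal zone-like, germinal center-like, plasmablast-like or cycling. Another was led by S100a6 and Zbtb32 and is called the Zbtb32 cluster. Levels are CPM, UMI counts scaled to a common total of gene UMIs (counts per 1e+06), of the summed cells of a set, treatment and class, given as mean ± SD over n = 3 sets; UMIs tag one end of a transcript, so the values are not scaled by length. Immunoglobulin genes took 39.1% to 42.9% of the UMIs in plasmablast-like sums and at most 4.58% in the other B cell classes, so levels over all other genes are added for plasmablast-like cells. The 201 NK-like cells, which should lack B cell identity factors, were used to gauge free RNA. Of these 3.98% had a Pax5 UMI, 7.96% an Ebf1 UMI and 4.48% a Spib UMI, at a median depth of 6517 UMIs. Immunoglobulin genes took 5.39% of the NK-like UMIs in set 3 with R848 and 0.106% to 0.343% in the other sums, so the gauge is rough.

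The plasma cell drivers stood highest in plasmablast-like cells. With R848 alone, Prdm1 measured 48.9, 69.7 and 49.5 CPM in plasmablast-like cells of sets 1 to 3, a mean of 56.0 ± 11.8. The next class, germinal center-like cells, measured 5.20 ± 1.30 CPM, and the sets of these 2 classes did not overlap. Marginal zone-like cells (4.29 ± 1.97) and the Zbtb32 cluster (4.22 ± 1.80) overlapped with germinal center-like cells, and transitional-like, follicular-like, cycling and activated-like cells lay between 0.816 and 1.48 CPM. Without immunoglobulin genes in the total, the Prdm1 level of plasmablast-like cells was 96.8 ± 18.5 CPM. A Prdm1 UMI was found in 47.8% ± 7.02 of plasmablast-like and 0.441% ± 0.0387 of follicular-like cells with R848, at median depths of 17460 and 4357 UMIs; thinned to 2000 UMIs per cell the shares were 12.4% ± 2.42 and 0.138% ± 0.0567 (40 and 293 cells too shallow to be thinned). NK cells are known to use Prdm1 themselves, and 17.4% of the NK-like cells had a Prdm1 UMI, so they gave no background for it.

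Xbp1 measured 1822, 1927 and 1737 CPM in plasmablast-like cells with R848, a mean of 1829 ± 95.3, against 172 ± 16.2 in germinal center-like cells. All sets of these classes were apart from each other and from the rest, which lay between 54.8 (follicular-like) and 81.2 CPM (Zbtb32 cluster) and overlapped with their neighbours. Irf4 measured 144, 198 and 136 CPM in plasmablast-like cells, or 159 ± 33.9. It was lowest in germinal center-like cells, at 15.1 ± 4.74 CPM, below every set of follicular-like cells (41.1 ± 8.84); from marginal zone-like (81.9 ± 13.9) to follicular-like cells each class overlapped with the next. Both plasmablast-like clusters held this pattern, with the dividing one (cluster 15, 522 cells) at 67.3 ± 10.5 CPM of Prdm1 and 2322 ± 248 of Xbp1 without immunoglobulin genes, and the other (cluster 16, 2510 cells) at 112 ± 19.7 and 3517 ± 97.1.

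The identity factors were lowest in plasmablast-like cells. Ebf1 measured 60.7, 65.4 and 51.5 CPM there with R848, against 919 ± 108 in follicular-like and 1405 ± 137 in transitional-like cells, where it was highest. Germinal center-like cells had the next lowest Ebf1, 324 ± 65.1 CPM, with no overlap with their neighbours on either side. Spib, an ETS factor that partners IRF4 and IRF8, measured 6.97, 5.85 and 5.32 CPM in plasmablast-like cells and 436 ± 30.4 in transitional-like cells, its peak. Other classes lay between 122 and 193 CPM of Spib. Pax5 went from 6.86 ± 1.46 CPM in plasmablast-like through 62.1 ± 4.61 in the Zbtb32 cluster to 155 ± 15.5 in transitional-like cells. Those 3 groups of sets did not overlap with their neighbours. Irf8 was spread less, from 462 ± 14.6 CPM in marginal zone-like to 616 ± 48.1 in germinal center-like cells, and measured 93.8 ± 27.2 in plasmablast-like cells. From germinal center-like down to transitional-like cells (492 ± 14) each class overlapped with the next. Over all genes other than immunoglobulin, these levels in plasmablast-like cells were 102 ± 10.9 CPM (Ebf1), 10.5 ± 1.54 (Spib), 11.9 ± 2.56 (Pax5) and 162 ± 44.3 (Irf8). The NK-like cells, used to gauge free RNA, held 7.02 CPM of Pax5, 14.05 of Spib and 30.01 of Ebf1 over all genes. Without immunoglobulin genes they held 6.23 ± 2.75 CPM of Pax5 and 11.8 ± 10.7 of Spib. By CPM, Spib in plasmablast-like cells was thus not above the NK-like cells, and Pax5 lay close to them. Median depth was 17460 UMIs in plasmablast-like cells with R848 and 6517 in NK-like cells, so like CPM need not mean a like part of free RNA. With R848, a Pax5 UMI was found in 8.60% ± 1.84 of plasmablast-like cells and a Spib UMI in 6.87% ± 0.837. In NK-like cells the shares were 3.98% and 4.48%. The part of free RNA in these levels was not tested.

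The repressors of the plasma cell program had their own peaks. Bcl6 was highest in germinal center-like cells (99.3, 108 and 88.1 CPM), more than in any set of follicular-like cells (31.8 ± 5.69), and lowest in plasmablast-like cells (1.76 ± 0.493). Bach2 was highest in transitional-like cells (292 ± 11.8 CPM), followed by follicular-like (257 ± 3.16) and germinal center-like cells (241 ± 24.5), which overlapped. Activated-like, cycling, Zbtb32 cluster and marginal zone-like cells held 89.8 to 121 CPM of Bach2, and plasmablast-like cells 15.2 ± 3.78. Nfil3 was low in every class with R848, from 1.43 ± 2.15 CPM in transitional-like cells to 13.5 ± 3.78 in the Zbtb32 cluster.

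**Figure D1:**
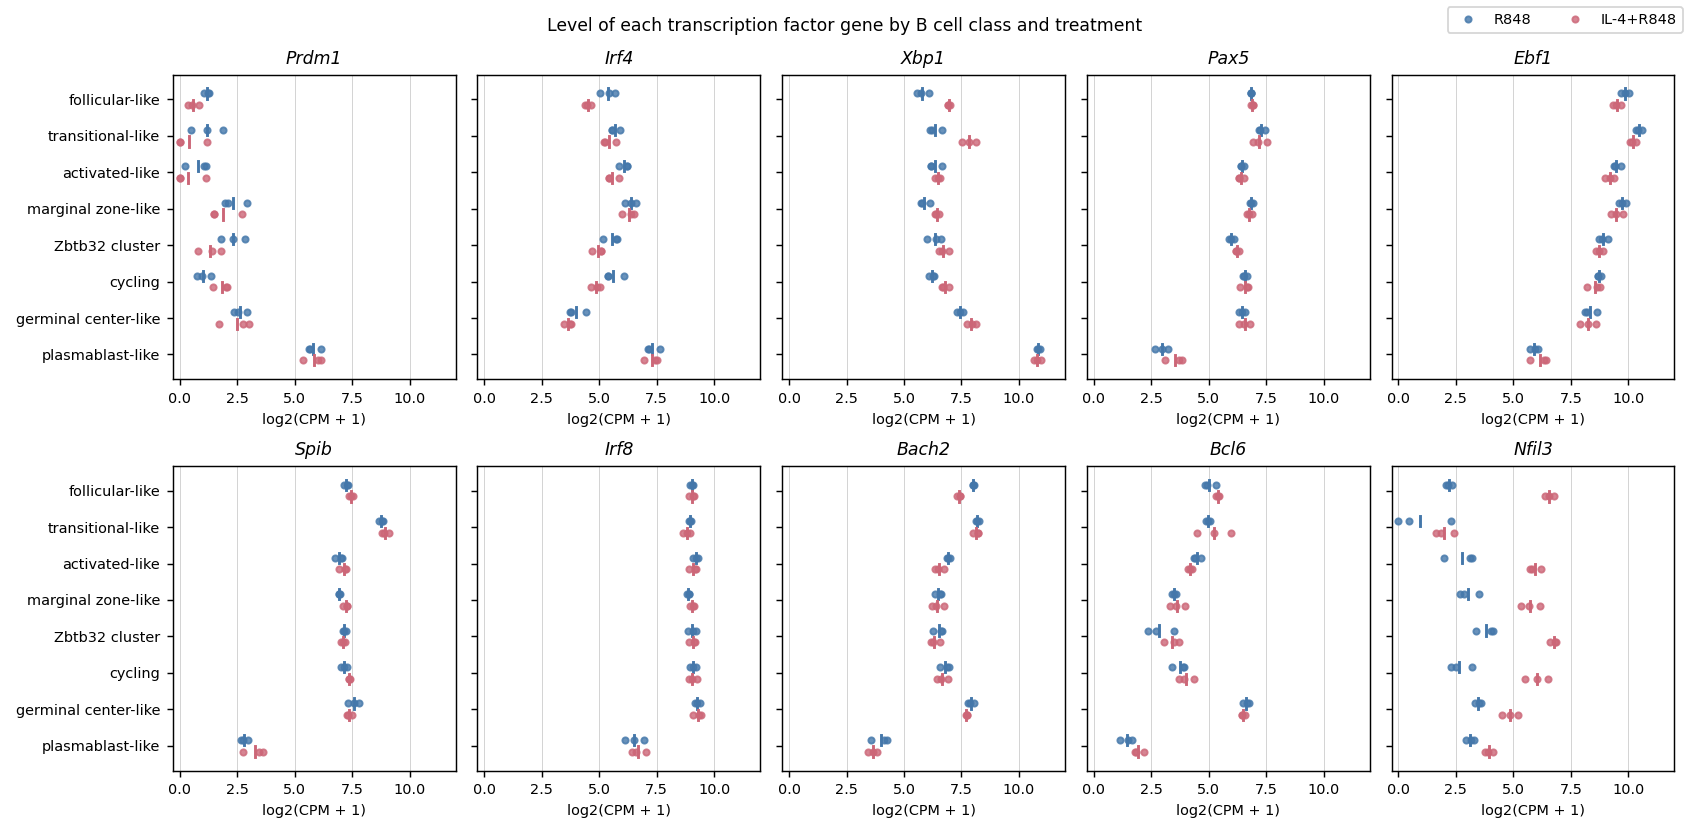
Level of each member as log2(CPM + 1) (horizontal axis) in 8 B cell classes (rows) with R848 (blue) and IL-4+R848 (red); points are the 3 sets and bars their means. Prdm1, Irf4 and Xbp1 are highest and the identity factors lowest in plasmablast-like cells, and Nfil3 separates the treatments in most classes.

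Single cells showed how far the programs were kept apart. In plasmablast-like cells 1451 of 3032 cells had a Prdm1 UMI, and 99.7% of these also had an Xbp1 UMI and 79.3% an Irf4 UMI, against 98.7% and 66.5% of the cells without one (median depths 18430 and 17480 UMIs). A Pax5 UMI was found in 10.1% of the Prdm1 cells and 9.42% of the others, a Bcl6 UMI in 2.96% and 3.73%. Pax5 in this class lay close in CPM to the NK-like cells, and the part of free RNA was not tested, so its shares do not show that Prdm1 cells keep it. Only 61 of 17626 follicular-like cells had a Prdm1 UMI, and 39.3% of them had an Irf4 UMI, against 13.5% of the other follicular-like cells (median depths 5531 and 5135 UMIs). Pax5 was found in 32.8% of those 61 cells and 43.3% of the rest. Cells of a class share sets and free RNA, so these shares are a description.

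The same contrast was measured in cells gated by surface antibody, without use of their RNA. CD138 (syndecan-1) marks antibody-secreting cells and IgD marks naive B cells. The reference was the cells gated by IgD that lay below the CD138 and CD95 thresholds, called IgD-only cells here; most cells were above the IgD threshold (65.2% to 68.0% per set), those of the other gates among them. Prdm1, Xbp1 and Irf4 were higher in the CD138 gate and Spib, Bcl6, Ebf1, Pax5, Bach2 and Irf8 were lower. Prdm1 measured 56.8, 67.4 and 67.7 CPM without immunoglobulin genes in the CD138 gate with R848 and 1.17 ± 0.251 in IgD-only cells, all sets apart. Over all genes the level was 41.5 CPM in the CD138 gate and 4.95 ± 0.558 in all IgD-gated cells. Its log2 fold change over both treatments was 6.16 ± 0.19 (standard error; adjusted p = 2.84e-08, edgeR's quasi-likelihood test with the pool of set and treatment as a block). Xbp1 was higher by 4.71 ± 0.18 on the log2 scale (adjusted p = 8.27e-08, edgeR) and Irf4 by 2.40 ± 0.19 (adjusted p = 6.34e-06, edgeR).

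Spib showed the lowest log2 fold change in the CD138 gate, -1.95 ± 0.15 (adjusted p = 4.65e-06, edgeR), and the other lower members ranged from -1.73 (Bcl6) to -1.31 (Irf8). Nfil3 did not pass the test (-0.37 ± 0.53, adjusted p = 0.552, edgeR). These calls, 3 higher and 6 lower of 10, compare with 35.8% and 39.3% of 11095 genes called in each direction, 75% in all, so the share of members called stood not far above that of all genes. The CD138 gate was not pure: 13.7% to 35.9% of its cells carried follicular-like RNA, and the top 5% of each set by the antibody left the same 3 higher and 6 lower members. Against all IgD-gated cells, a reference chosen after the data were seen, 3 members were again higher and 6 lower (35.3% and 39.4% of 11562 genes), with a smaller difference for Prdm1 (4.08) and Xbp1 (3.68).

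CD95 (Fas) marks activated and germinal center B cells, and here the result depended on the reference. The CD95 gate, like the IgD-only cells, left out cells above the CD138 threshold, while all IgD-gated cells kept them. Prdm1 was higher in the CD95 gate than in IgD-only cells by 2.49 ± 0.19 on the log2 scale and Xbp1 by 0.58 ± 0.11, while Ebf1 (-0.48 ± 0.06), Bach2 (-0.24 ± 0.05) and Spib (-0.14 ± 0.04) were lower (adjusted p from 2.07e-05 to 0.0218, edgeR with the pool as a block). Against all IgD-gated cells Xbp1 was lower in the CD95 gate (-0.45, adjusted p = 0.00182, edgeR), Prdm1 was higher by 0.42 (adjusted p = 0.0444, edgeR) and Spib did not pass, while Irf4 was called lower (-0.27, adjusted p = 0.0199, edgeR). With the IgD-gated cells outside the CD95 gate as the reference, Xbp1 was also lower (-0.73) and Prdm1 did not pass (0.12, adjusted p = 0.638, edgeR). That reference kept CD138-high cells too. Over all genes, Xbp1 with R848 was 66.9 CPM in IgD-only cells, 127 in the CD95 gate and 174 ± 57.5 in all IgD-gated cells. With IL-4+R848 it was 112, 149 and 180 ± 27.7 in the same order. The part of CD138-high cells in the differences between references was not tested. Ebf1 and Bach2 were lower against each of the 3 references. Without the block, against IgD-only cells, Xbp1 (adjusted p = 0.0899) and Spib (adjusted p = 0.154, edgeR) did not pass, and neither Spib without set 1 or 3 nor Bach2 without set 1 (adjusted p = 0.0651, edgeR). Bcl6 did not pass (0.19 ± 0.14, adjusted p = 0.311, edgeR). Calls were made for 42.6% of 11185 genes (21.1% higher, 21.5% lower), so 2 members higher and 3 lower of 10 is close to the share of all genes. Against all IgD-gated cells 1 member was higher and 4 were lower, where 21.5% and 22.7% of 11600 genes were called. Only 3.89% to 21.1% of CD95-gated cells carried germinal center-like RNA. A gate on GL7, a germinal center marker, was added after the data were seen. Bcl6 was higher there than in IgD-only cells by 0.74 on the log2 scale (adjusted p = 0.0148, edgeR). Of 10829 genes 7337 were called in this gate, 3491 higher and 3846 lower. Prdm1 (3.09) and Xbp1 (1.08) were also higher and Ebf1 (-0.87) and Pax5 (-0.43) lower (adjusted p from 9.36e-06 to 0.000242, edgeR). The other members did not pass. Germinal center-like RNA was carried by 43.1% to 54.2% of its R848 cells and 15.9% to 30% of its IL-4+R848 cells.

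**Figure D2:**
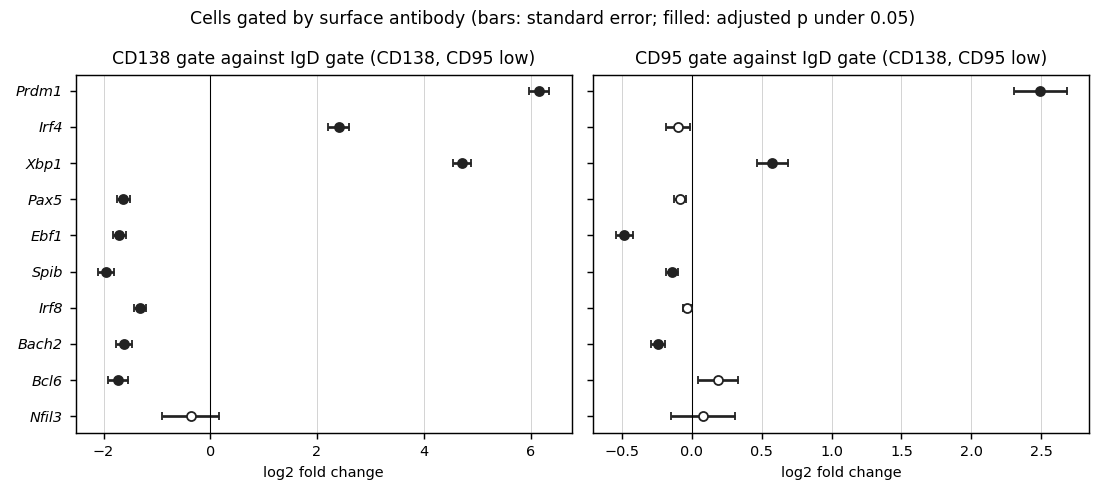
Log2 fold change (horizontal axis) of each member (rows) in cells gated by CD138 (left) or CD95 (right) against IgD-gated cells below the CD138 and CD95 thresholds; bars are standard errors and filled points have an adjusted p under 0.05. In the CD138 gate Prdm1, Xbp1 and Irf4 lie to the right of 0, 6 members lie to the left and Nfil3 is open. Xbp1 in the CD95 gate turns to -0.45 against all IgD-gated cells, which keep CD138-high cells.

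Most members differed with IL-4 in follicular-like cells, a class named from markers of the naive recirculating pool. It may hold other cells too. Scaled to genes other than immunoglobulin, its cluster 0 held 304 ± 252 CPM of the switched heavy chain gene Ighg2c and its cluster 3 held 25.0 ± 12.8. Nfil3 rose most by far, Xbp1 rose from 54.8 ± 10.4 to 122 ± 3.06 CPM, Bcl6, Spib and Pax5 rose slightly, and Irf4, Bach2 and Prdm1 fell. Of the 10 members 5 rose and 3 fell, beside 10.5% and 9.89% of 11182 genes that were called higher and lower (20.4% in all; edgeR's quasi-likelihood test, adjusted p under 0.05). The fit placed the median gene at -0.00644 on the log2 scale, whereas the ratio of plain CPM placed it at -0.133, so fold changes are relative to the median gene. The treatments filled different clusters of this class: clusters 3 and 9 held 56.3% and 37.8% of the 7934 R848 cells and 2.50% and 2.08% of the 9692 IL-4+R848 cells, while clusters 7, 14 and 0 held 43.3%, 29.8% and 13.5% of the IL-4+R848 cells and 1.46%, 0.0504% and 2.23% of the R848 cells. A difference over the class therefore combines differences within clusters with the change of clusters, also where cluster 14 is left out. Genes that differ with IL-4 were not kept out of the clustering, so cells compared within a cluster were alike by choice. Values within a cluster therefore cannot separate these parts. Values within clusters, over genes other than immunoglobulin, are given beside the members. Some rest on few cells. With R848, cluster 2 held 33, 51 and 37 cells in sets 1 to 3. Cluster 0 held 46, 40 and 91 R848 cells, and cluster 7 held 47, 14 and 55. Classes needed 50 cells in each sum to be tested, and clusters of this class were not tested.

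Nfil3 measured 3.19, 4.06 and 3.38 CPM with R848 and 80.6, 107 and 92.4 CPM with IL-4+R848 in sets 1 to 3. Every IL-4+R848 sum was above every R848 sum, and the log2 fold change was 4.85 ± 0.14 (adjusted p = 2.52e-08, edgeR). Thinned to 2000 UMIs, 0.836% ± 0.108 of follicular-like cells had an Nfil3 UMI with R848 and 14.9% ± 1.97 with IL-4+R848. The difference was present within clusters, from 2.92 ± 1.07 to 39.4 ± 5.85 CPM in cluster 3 and from 12.6 ± 3.62 to 79.8 ± 17.2 in cluster 7.

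Xbp1 measured 46.2, 51.7 and 66.4 CPM with R848 and 120, 126 and 121 CPM with IL-4+R848. The groups did not overlap, and the log2 fold change was 1.28 ± 0.11 (adjusted p = 2.88e-05, edgeR). Its level differed between follicular-like clusters: cluster 14, 99.9% of whose cells were from IL-4+R848, held 238 ± 15.4 CPM without immunoglobulin genes, while cluster 3 held 54.1 ± 11 with R848 and 45.3 ± 6.28 with IL-4+R848. Cluster 9 held 55.9 ± 9.71 and 61.0 ± 14.1 CPM, and cluster 7 held 64 ± 7.33 and 83.8 ± 6.03. Cluster 2 went from 51.2 ± 1.29 to 102 ± 5.71 CPM, and cluster 0 held 96.2 ± 19.6 and 92.9 ± 10.5. Without cluster 14 the log2 fold change was 0.79 (adjusted p = 0.00101, edgeR), and in all IgD-gated cells it was 0.19 (adjusted p = 0.679, edgeR; 10.4% of genes called). Where IgD-gated cells above the CD138 or CD95 threshold were left out it was 0.90 (adjusted p = 0.002, edgeR; 11% of genes called).

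Bcl6 measured 29.5, 27.7 and 38.3 CPM with R848 and 38.8, 42.4 and 41.0 with IL-4+R848. The highest R848 set lay just under the lowest IL-4+R848 set, and the log2 fold change was 0.48 ± 0.11 (adjusted p = 0.0129, edgeR). Without cluster 14, which held 67.3 ± 2.86 CPM without immunoglobulin genes, the levels were 31.9 ± 5.71 and 32.0 ± 0.625 CPM (log2 fold change 0.17, adjusted p = 0.371, edgeR). Within clusters 0, 3 and 9 the mean went the other way, from 38.1 ± 11.5 to 23.5 ± 6.10, from 32.3 ± 3.04 to 23.2 ± 7.36 and from 32.9 ± 8.01 to 26.3 ± 7.31 CPM, and in cluster 2 it went from 20.3 ± 8.98 to 47.5 ± 6.38. In IgD-gated cells, where RNA clusters play no part, Bcl6 rose by 0.57 on the log2 scale (adjusted p = 0.0194, edgeR). Leaving out set 1 or set 2 ended the call in follicular-like cells (adjusted p = 0.0648 and 0.132, edgeR).

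Spib rose by 0.34 ± 0.06 on the log2 scale (adjusted p = 0.00403, edgeR), from 151 ± 8.01 to 175 ± 11.6 CPM, with the groups apart. With transitional-like cells, where Spib is highest, added to both groups the log2 fold change was 0.07 (adjusted p = 0.473, edgeR), and with clusters built without treatment-responsive genes it was 0.16 (adjusted p = 0.138, edgeR). Pax5 was 113 ± 0.803 CPM with R848 and 118 ± 3.89 with IL-4+R848, groups that overlapped; its log2 fold change of 0.19 ± 0.05 passed narrowly (adjusted p = 0.0293, edgeR) and did not pass without any 1 of the sets (adjusted p from 0.0662 to 0.192).

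Irf4 measured 49.8, 41.4 and 32.1 CPM with R848 and 19.6, 24.1 and 21.3 with IL-4+R848. All IL-4+R848 sets were lower, by -0.79 ± 0.14 on the log2 scale (adjusted p = 0.00269, edgeR), and the fall was called in IgD-gated cells too (-0.77, adjusted p = 0.00292, edgeR). Within the clusters that held most R848 cells Irf4 was no lower beyond its spread. It was 32.8 ± 9.87 and 35.0 ± 8.26 CPM in cluster 3 and 50.1 ± 8.63 and 48.5 ± 9.44 in cluster 9. Cluster 2 went from 61.7 ± 18.2 to 13.5 ± 2.29. In clusters 0 and 7, with 13.5% and 43.3% of the IL-4+R848 cells, the mean also fell. It went from 52.5 ± 25.2 to 19.8 ± 3.51 in cluster 0 and from 35.5 ± 11.5 to 23.8 ± 3.18 in cluster 7. Cluster 10 went from 27.9 ± 29.0 to 32.3 ± 19.7. Clusters 0, 2, 7 and 10 held few R848 cells. Bach2 measured 261, 255 and 256 CPM with R848 and 171, 156 and 170 with IL-4+R848. The groups lay far apart against their spread, with a log2 fold change of -0.50 ± 0.05 (adjusted p = 0.000105, edgeR). Bach2 was lower within cluster 3 (233 ± 9.31 and 170 ± 11 CPM) and cluster 9 (301 ± 5.20 and 262 ± 21.4), and close in cluster 7 (179 ± 21.4 and 175 ± 5.40). The Bach2 fall was smaller in IgD-gated cells, -0.12 (adjusted p = 0.164, edgeR), and -0.24 (adjusted p = 0.0147, edgeR) with CD138- and CD95-high cells left out.

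Prdm1 stood near the detection limit in follicular-like cells, at 1.40, 1.06 and 1.32 CPM with R848 and 0.797, 0.454 and 0.275 with IL-4+R848. The groups did not overlap, with a log2 fold change of -1.16 ± 0.36 (adjusted p = 0.0463, edgeR). DESeq2 did not call it (-1.18, adjusted p = 0.124). Nor did edgeR without set 2 (adjusted p = 0.168), without set 3 (adjusted p = 0.217) or without cluster 14 (adjusted p = 0.156). Over genes other than immunoglobulin, Prdm1 differed between clusters. Cluster 2, with 121 of the 7934 R848 cells, went from 21.2 ± 8.74 to 2.49 ± 2.39 CPM. Cluster 0 went from 7.94 ± 8.32 to 1.31 ± 0.404. Cluster 3 held 0.569 ± 0.515 and 0 CPM, cluster 9 held 1.03 ± 0.507 and 0.762 ± 1.32, and cluster 7 held 0 and 0.164 ± 0.150. The part of cluster 2 in the fall was not tested. Ebf1 went from 919 ± 108 to 719 ± 83.9 CPM and did not pass (-0.23 ± 0.10, adjusted p = 0.129, edgeR); with the set as a block, which takes out the parallel differences between sets, it passed at the same size (-0.23, adjusted p = 0.000271, edgeR). Irf8, 523 ± 21.7 CPM with R848 and 522 ± 44.2 with IL-4+R848, did not pass (0.12 ± 0.06, adjusted p = 0.199, edgeR), but was called higher without cluster 14 (0.20, adjusted p = 0.0489, edgeR).

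**Figure D3:**
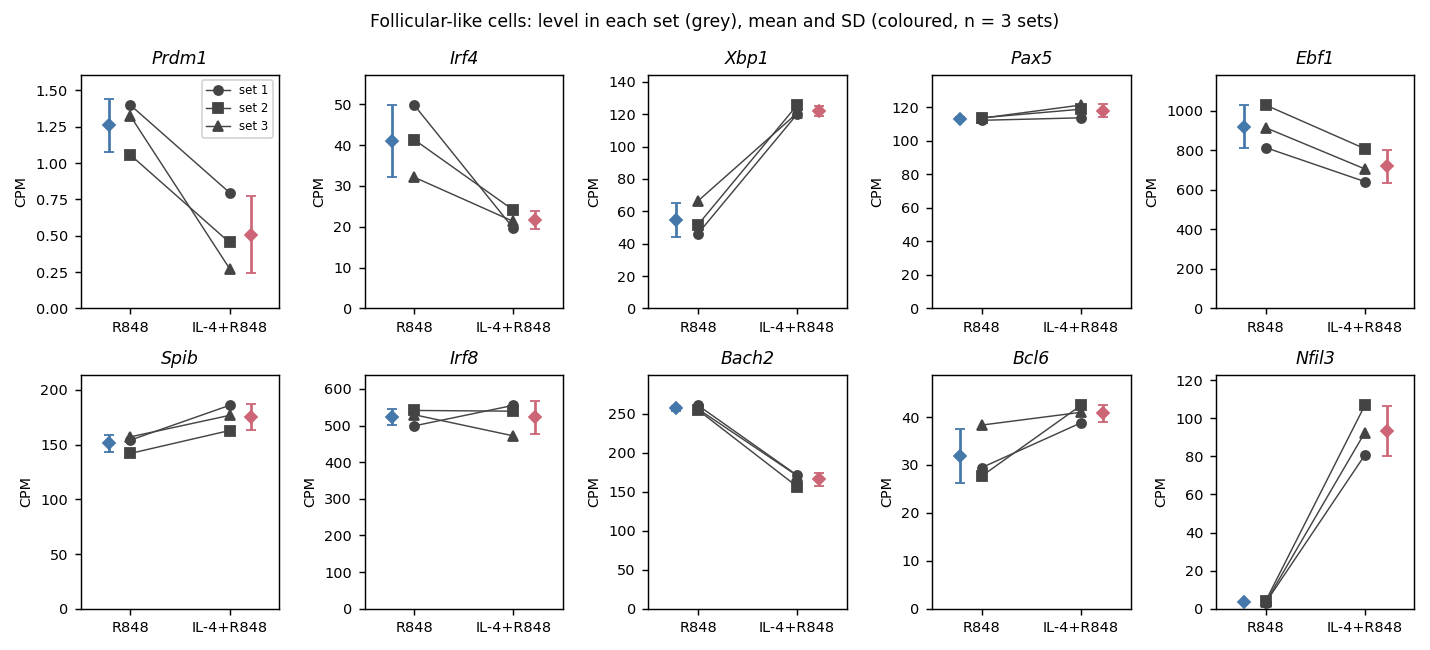
Level in CPM (vertical axis, from 0) of each member in follicular-like cells of each set with R848 and IL-4+R848; lines join the treatments of a set and coloured diamonds give mean and SD over 3 sets. Nfil3, Xbp1, Bach2 and Irf4 separate the treatments in all sets, while Irf8 and Pax5 overlap.

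Transitional-like cells, the immature cells that have newly reached the spleen, showed 1 call among 8 members tested, beside 1.75% of 8355 genes. Xbp1 rose from 69.2, 72.9 and 101 CPM to 184, 227 and 278, by 1.55 ± 0.15 on the log2 scale (adjusted p = 0.00011, edgeR). The groups were apart. Nfil3 and Prdm1 were too low to be tested in these clusters, with Nfil3 at 1.43 ± 2.15 and 3.01 ± 1.12 CPM; 650 of the 3221 transitional-like cells came from IL-4+R848. Ebf1 did not pass (-0.23 ± 0.09, adjusted p = 0.298, edgeR) unless the set was a block (-0.23, adjusted p = 0.0383, edgeR). In a gate on CD93, a marker of immature B cells, with high IgM, chosen after the data were seen, 74.4% to 80.5% of the IL-4+R848 cells carried follicular-like RNA, against 31.2% to 39.7% of the R848 cells. There Nfil3 measured 5.47, 3.86 and 1.57 CPM with R848 and 68.1, 83.9 and 71.3 with IL-4+R848 (log2 fold change 4.56, adjusted p = 1.39e-07, edgeR). Xbp1 (1.02) and Bcl6 (0.51) also rose and Irf4 (-0.68) and Bach2 (-0.25) fell in this gate (adjusted p from 0.000558 to 0.0383, edgeR). More genes of every kind were called there, 868 of 9922 against 146 of 8355 in the transitional-like cluster. The members called in the gate and not in the transitional-like cluster thus depended on how immature cells were chosen.

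Among the other classes, Nfil3 was the member called in each but plasmablast-like cells. It rose from 6.27 ± 2.88 to 60.3 ± 11.5 CPM in activated-like cells (log2 fold change 3.39 ± 0.24), from 7.32 ± 2.66 to 53.3 ± 15.2 in marginal zone-like cells (2.99 ± 0.28), from 13.5 ± 3.78 to 107 ± 9.96 in the Zbtb32 cluster (3.04 ± 0.19) and from 5.53 ± 2.30 to 66.4 ± 23.2 in cycling cells (3.61 ± 0.30). The adjusted p in these 4 classes ran from 1.47e-05 to 0.00019 (edgeR), and all their sets were apart. The shares of all genes called were 3.26%, 1.06%, 1.8% and 1.18% in the order above. Xbp1 rose in cycling cells, from 73.1 ± 5.55 to 109 ± 13 CPM (0.65 ± 0.12, adjusted p = 0.0229, edgeR). That call did not hold with the set as a block (adjusted p = 0.0829, edgeR) or without any 1 set. In marginal zone-like cells Xbp1 was 58.1 ± 8.86 and 84.8 ± 6 CPM (0.58 ± 0.15, adjusted p = 0.0856, edgeR), while the blocked fit called it (0.60, adjusted p = 0.0363, edgeR with the set as a block).

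Germinal center-like cells changed less. Nfil3 measured 8.97, 10.4 and 11.2 CPM with R848 and 27.6, 35.5 and 21.4 with IL-4+R848, sets that did not overlap (1.52 ± 0.19, adjusted p = 0.0142, edgeR). Without set 1 or without set 2 it did not pass (adjusted p = 0.111 and 0.079, edgeR), and 0.297% of 9749 genes were called in this class. Xbp1 measured 157, 170 and 189 CPM with R848 and 277, 246 and 211 with IL-4+R848. Those sets were also apart, but edgeR did not call the difference (0.56 ± 0.11, adjusted p = 0.0925) while DESeq2 did (0.56, adjusted p = 0.000905). Bcl6, the germinal center factor, was 98.3 ± 9.83 and 89.0 ± 5.42 CPM (-0.09 ± 0.09, adjusted p = 0.894, edgeR).

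Plasmablast-like cells gave no call for any member, nor for any of 10279 genes (0% called; 503 at an unadjusted p under 0.05 with edgeR, and 36 called by DESeq2). Prdm1 measured 63.1, 69.3 and 39.7 CPM with IL-4+R848 beside the 48.9, 69.7 and 49.5 with R848, a log2 fold change of 0.02 ± 0.20. Irf4 (-0.04 ± 0.19) and Xbp1 (-0.06 ± 0.12) were as close, with overlapping sets. These tests bound the changes only as far as their standard errors. Nfil3 was 6.65, 7.97 and 8.80 CPM with R848 and 13.9, 16.5 and 12.7 with IL-4+R848, all sets apart (0.84 ± 0.15, adjusted p = 0.349, edgeR); DESeq2 called it (0.84, adjusted p = 0.0195). Bcl6, at 1.76 ± 0.493 and 2.86 ± 0.564 CPM, was also apart between groups and did not pass (0.74 ± 0.29, adjusted p = 1.00, edgeR). Plasmablast-like cells made up 9.24% to 12.5% of R848 and 4.13% to 8.74% of IL-4+R848 cells in the sets.

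**Figure D4:**
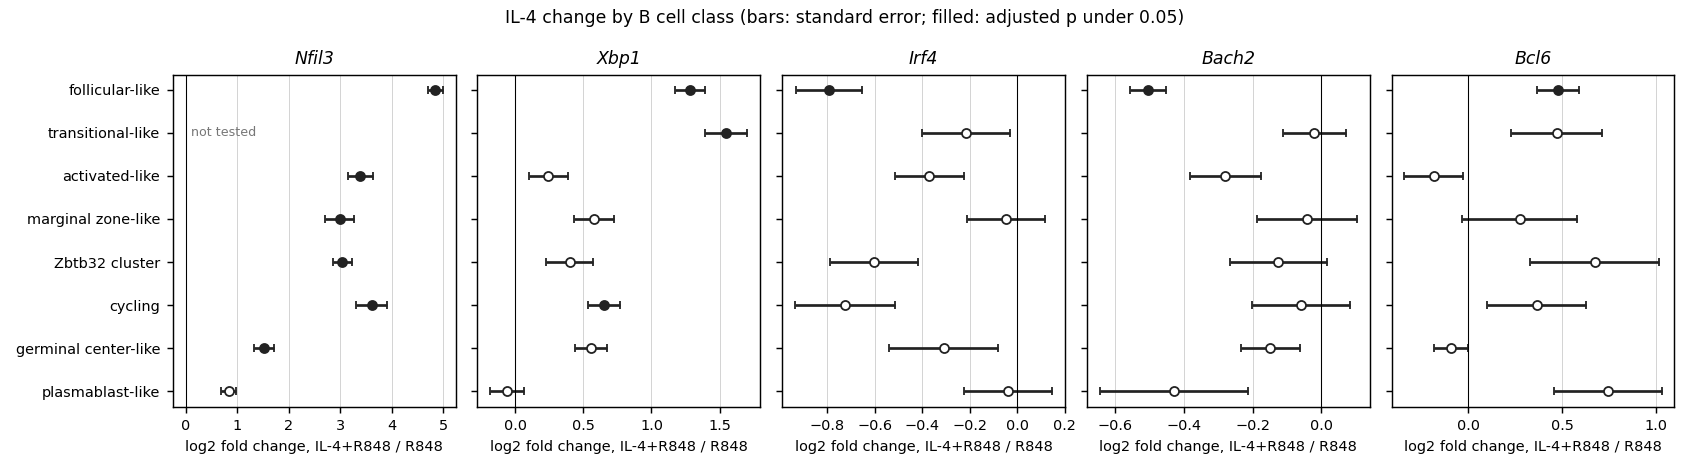
Log2 fold change of IL-4+R848 over R848 (horizontal axes, on separate scales) for 5 members in 8 B cell classes (rows); bars are standard errors and filled points have an adjusted p under 0.05. Nfil3 is filled in 6 classes with its smallest value, 0.84, in plasmablast-like cells, while Irf4, Bach2 and Bcl6 are filled in follicular-like cells only.

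Whether the IL-4 change differed from that in follicular-like cells was tested directly in one model over all classes. The Nfil3 change was smaller in plasmablast-like cells by -4.00 ± 0.36 on the log2 scale (adjusted p = 8.31e-10), in germinal center-like cells by -3.33 ± 0.37 (adjusted p = 1.05e-07), in marginal zone-like cells by -1.86 ± 0.44 (adjusted p = 0.0314) and in the Zbtb32 cluster by -1.79 ± 0.40 (adjusted p = 0.0398, all edgeR). In activated-like cells the Nfil3 difference of -1.45 ± 0.39 did not pass (adjusted p = 0.0711, edgeR) unless the set was a block (adjusted p = 0.0132), and likewise in transitional-like cells (-3.65 ± 1.09, adjusted p = 0.14, and 0.0444 with the block). The Xbp1 change was smaller in plasmablast-like (-1.34 ± 0.22, adjusted p = 0.000171, edgeR) and activated-like cells (-1.05 ± 0.23, adjusted p = 0.0149, edgeR). Without any 1 set the differences of Nfil3 in marginal zone-like cells and the Zbtb32 cluster and of Xbp1 in activated-like cells did not pass, nor did that of Xbp1 in plasmablast-like cells without set 2 (-1.23, adjusted p = 0.0648, edgeR).

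No difference was called for the other 8 members in any class. Of 10553 genes, 0.559% were called in transitional-like, 0.635% in activated-like, 0.758% in marginal zone-like, 3.15% in germinal center-like, 1.81% in plasmablast-like, 0.18% in Zbtb32 cluster and 0.341% in cycling cells. With the set as a block, Spib (-0.53, adjusted p = 0.049), Xbp1 (-0.74, adjusted p = 0.0364) and Bcl6 (-0.60, adjusted p = 0.0483) also differed in germinal center-like cells and Irf4 in plasmablast-like cells (0.75, adjusted p = 0.0429, all edgeR). Irf4, Bach2 and Bcl6 passed the test of treatment in follicular-like cells alone, but without the block the test of the difference called none of them in any class. With the block it called Bcl6 in germinal center-like and Irf4 in plasmablast-like cells only, and Bach2 in no class.

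The known partners and targets of the factors were described by counts. Among 13 B cell identity partners, 2 rose and 4 fell in follicular-like cells with a median log2 fold change of -0.17, where the median over all genes was -0.00644 and 10.5% of all genes were called higher and 9.89% lower, as for each list below. Pou2af1, a coactivator of octamer factors, rose from 158 ± 2.26 to 219 ± 9.92 CPM (0.60 ± 0.05), and Mef2c (-0.38 ± 0.05) and Runx1 (-0.34 ± 0.06) fell (adjusted p from 2.08e-05 to 0.00417, edgeR). Of 9 germinal center partners tested, 4 fell, with a median of -0.21 over the list. Hhex fell from 176 ± 6.73 to 101 ± 9.40 CPM (-0.68 ± 0.07) and Myb from 7.13 ± 1.62 to 1.71 ± 0.238 CPM (-1.94 ± 0.21; adjusted p = 0.000104 and 0.00013, edgeR).

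Among 15 activation and plasma cell partners 2 rose and 5 fell, beside the 10.5% and 9.89% of all genes, with a median of -0.20. Ell2, an elongation factor used in immunoglobulin secretion, rose (0.80 ± 0.07) and Bhlhe41 (-1.10 ± 0.13) and Bhlhe40 (-0.79 ± 0.09) fell (adjusted p from 4.54e-05 to 0.000236, edgeR). Of 9 genes that BLIMP-1 is known to repress, with a median of 0.04, the class II activator Ciita rose (0.57 ± 0.07, adjusted p = 0.000188, edgeR) and 1 fell, Id3 (-0.25 ± 0.05, adjusted p = 0.00751, edgeR). Of 10 genes activated by PAX5 or EBF1, 3 rose and 2 fell, with a median of -0.06: Vpreb3 rose from 215 ± 15.6 to 408 ± 9.53 CPM (1.05 ± 0.06), and Cr2 (-1.03 ± 0.10) and Cd72 (-0.71 ± 0.08) fell (adjusted p from 1.54e-06 to 0.000182, edgeR).

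The 13 XBP1 targets split, with 3 higher and 2 lower and a median of 0.17. Pdia4, a disulfide isomerase, rose from 194 ± 24.5 to 234 ± 9.43 CPM (0.40 ± 0.08), while Herpud1 (-0.38 ± 0.06) and the chaperone Dnajb9 (-0.36 ± 0.09) fell (adjusted p from 0.00123 to 0.0229, edgeR). In plasmablast-like cells no gene of these 6 lists was called, and their medians ran from -0.02 to 0.42 beside -0.00382 for all genes, the highest being that of the genes BLIMP-1 represses.

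Across the 16 means of class and treatment, the genes most like each member among 7029 expressed genes were ranked by Pearson's r of log2(CPM + 1), as a description. Prdm1 was most like Pon3 (0.95), Slc33a1 (0.95) and Mzb1 (0.95), and Xbp1 like Derl1 (0.96), Prg2 (0.95) and Creld2 (0.95). Irf4 followed Jun (0.95), Btg3 (0.93) and Cers2 (0.92). Of the members low in plasmablast-like cells, the leading matches were Idh3b (0.99) for Irf8, Arhgap17 (0.99) for Pax5, Flcn (0.99) for Ebf1, Smarcd2 (0.99) for Spib, Cdkn2aip (0.98) for Bach2 and Rfc1 (0.95) for Bcl6. Nfil3 had the weakest leading match, Slc2a6 (0.86), followed by Syngr2 (0.85) and Klhdc2 (0.83). These means share libraries and depth, and a drop in 1 class is enough for a high r.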

How the data were processed

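The 3 tables of 10x 5′ libraries were used, each a mixture of both treatments. Per the submitters' processing notes, Cell Ranger 6.0.1, Seurat 4.1.3 and build mm10 were used. The values are deposited UMI counts per gene and antibody tag, per the file headers, with no normalization. A cell took the treatment of a hashtag with at least 64 UMIs and 4 times the other plus 1; cells with both tags (827 to 1286 per set) were left out, while doublets within a treatment remain. Cells needed 500 genes and under 10% mitochondrial UMIs. Clusters (scanpy 1.11.5, 30 components, Leiden resolution 1.0) were named from 17 marker lists. Antibody gates were set per set from tag counts, and the IgD reference left out cells above the CD138 or CD95 threshold, with all IgD-gated cells as an alternative added after the data were seen. Counts summed per set, treatment and class entered the quasi-likelihood test of edgeR 4.0.16, with TMM scaling, the filterByExpr filter and Benjamini-Hochberg adjustment over all genes (0.05), or DESeq2 1.42.0 as an alternative, and the procedure was tested on simulated data. Depth was 96866964 to 107244246 gene UMIs per set. Shares of cells printed with ± are mean and SD over the 3 sets, and other shares carry no measure of spread. Members and gene lists were chosen with earlier results of these data known; from each list up to 3 called genes with the largest change in follicular-like or plasmablast-like cells were named, and for each member the 3 genes of highest correlation. One gene of these lists is not reported here. Both treatments of a set share a library, so the set numbers pair the samples; in follicular-like cells same-set deviations correlated at 0.373 to 0.443, in other classes at -0.167 to 0.249. Alternatives changed the tool, filter, block, immunoglobulin genes, clusters, hashtag and cell rules, and left out each set. Promoter sequences are from RefSeq on GRCm38.p6, matched for all 10 members by symbol.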

Additional observations from a re-analysis of the deposited data

Results flagged for a closer look

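The change with IL-4 differed between classes for Nfil3 and Xbp1, by a test of the difference from follicular-like cells (edgeR's quasi-likelihood test, one model over all classes). For Nfil3 the difference on the log2 scale was -4.00 in plasmablast-like cells, -3.33 in germinal center-like cells, -1.86 in marginal zone-like cells and -1.79 in the Zbtb32 cluster. For Xbp1 it was -1.34 in plasmablast-like cells and -1.05 in activated-like cells. Median depth differed between these classes and between treatments, and its part in the differences was not tested.

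In 4 further pairs, all 3 sets moved one way in follicular-like cells and the other way in another class, while the difference itself was not called. Prdm1 fell in all sets of follicular-like cells and was higher in all sets of cycling cells (difference 2.45, adjusted p = 0.321, edgeR), at no more than 3.19 CPM in any of them. Bcl6 went opposite ways in activated-like cells (-0.67, adjusted p = 0.247, edgeR) and germinal center-like cells (-0.59, adjusted p = 0.107, edgeR), as did Spib in germinal center-like cells (-0.53, adjusted p = 0.0814, edgeR).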

How the results depend on the processing

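Of the alternative values of single members, 454 kept direction and side of the threshold, 46 no longer passed, 23 newly passed and 13 changed sign. A further 18, all of plasmablast-like to follicular-like ratios, kept their sign but moved by at least their SD over the sets. The cause was not tested. The changes of sign were of uncalled values in plasmablast-like cells and of 2 called members, Spib and Xbp1, in the CD95 gate. Prdm1 in plasmablast-like cells went to -0.00086 without a filter on low counts, -0.0028 with the set as a block, -0.048 with a stricter hashtag rule and -0.22 in cluster 15 alone, and to between -0.15 and 0.14 without 1 set. Irf4 went to 0.23 in cluster 15 and to between -0.18 and 0.043 without 1 set, and Xbp1 to 0.17 with the stricter hashtag rule and 0.0048 in cluster 15. Spib was 0.17 in the GL7 gate in place of the CD95 gate, and Xbp1 in the CD95 gate was -0.45 against all IgD-gated cells and -0.73 against those outside the CD95 gate.

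The number of all genes called moved between settings too. In follicular-like cells it was 2281 of 11182 in the main fit, 2964 with the block and 982 of 11211 without set 2. The difference from follicular-like cells was called in germinal center-like cells for 332 of 10553 genes, and for 500 with the block. The numbers of members called higher with IL-4 moved as follows. In follicular-like cells 5 became 3 with transitional-like cells added and 3 to 4 without 1 set. In transitional-like cells 1 became 3 in the CD93 gate. In marginal zone-like cells 1 became 2 without a filter, with the block, without immunoglobulin genes and with clusters built without treatment-responsive genes. In germinal center-like cells 1 became 2 with DESeq2, without a filter and without immunoglobulin genes, and 0 to 2 without 1 set. In plasmablast-like cells 0 became 1 with DESeq2 and without immunoglobulin genes. In cycling cells 2 became 1 with the block and 1 without any set.

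In follicular-like cells the 3 called lower became 2 with DESeq2, with the other hashtag and cell rules, in both IgD gates and without cluster 14, 4 without a filter and with the block, and 2 to 3 without 1 set. The numbers called lower moved from 0 to 1 in transitional-like cells without a filter and with the block, and to 2 in the CD93 gate. They moved from 0 to 1 in marginal zone-like cells with clusters built without treatment-responsive genes (Irf4, -0.92), and in the Zbtb32 cluster and cycling cells without a filter and without immunoglobulin genes (Irf4 in each).

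Smaller changes than in follicular-like cells moved from 0 to 1 member in transitional-like cells without a filter and with the block. In activated-like cells 1 became 2 without a filter, with the block and without immunoglobulin genes, and 0 without any set. In germinal center-like cells 1 became 2 without a filter and 4 with the block or without immunoglobulin genes. In the Zbtb32 cluster 1 became 2 without a filter and without immunoglobulin genes, and 0 without any set, as in marginal zone-like cells. In plasmablast-like cells 2 became 1 to 2 without 1 set, and larger changes went from 0 to 1 with the block and without immunoglobulin genes, and 0 to 1 without 1 set.

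In the CD95 gate the members called higher went from 2 to 1 with no replicate block or against all IgD-gated cells and to 0 against those outside the gate, and those called lower from 3 to between 1 and 3 without 1 set. The block, which pairs the treatments of a set, changed no call other than those given here and beside the results. Plasmablast-like to follicular-like ratios kept their sign without immunoglobulin genes and after thinning, but 18 of these values moved by at least their SD over the sets. Prdm1 in follicular-like and Nfil3 in transitional-like cells were limited by depth, at 5 to 18 and 0 to 9 UMIs per sum.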
